A study of Mus musculus with 6 samples.

Results

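The 45 genes described here encode the machinery that takes a cell into mitosis, builds the spindle, attaches and separates the chromosomes and cuts the cell in 2. They were taken by symbol, all 45 were present among the 21761 genes of the expression table, and all 45 passed the filter on low values, which asked for at least 1 RPKM in at least 2 of the 6 libraries. RPKM, the unit of the table, is scaled by gene length and library size, so that levels of different genes can be set beside each other. By role, 5 of the genes are mitotic cyclins and their partners, 3 belong to the Plk1 and Aurora A kinases with the activator Tpx2, 4 form the chromosomal passenger complex, 4 are checkpoint genes and 3 act at anaphase. Kinetochores account for 7, the spindle for 7, cytokinesis for 5 and chromosome structure for 7.

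Mitosis is entered when Cdk1 bound to cyclin B is activated, and it is left when the anaphase-promoting complex, a ubiquitin ligase, marks cyclin B and securin for destruction. Most of the genes involved are transcribed late in the cell cycle and are silent in resting cells, so that their RNA is widely used as a gauge of how many cells in a sample are dividing. In bone marrow the dividing cells are mainly precursors of red cells, granulocytes and lymphocytes, while mature neutrophils and most macrophages and dendritic cells have left the cycle.

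RNA came from bone marrow of male C57BL/6J mice, with no genetic change named, and was measured in 3 groups of 2 libraries: day 0 (replicates II and III), day 4 (replicates I and II) and day 7 (replicates III and IV) of culture. The medium held Flt3 ligand, the cytokine that directs marrow progenitors toward dendritic cells, as the supernatant of a transfected SP2/0 line. The submitters called the day 4 cells common myeloid progenitors (CMP) and those of day 7 dendritic cells derived from marrow (BMDC), and per the labels every live cell of those days was taken. No label says whether the 2 replicates of a day were different mice or dishes. Where they were not, the p-values below rest on technical spread alone.

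Cell type markers and depth both moved with the day. Reads in genes ran from 157797 to 322837 at day 0, from 1365635 to 3852628 at day 4 and from 10951745 to 16149088 at day 7. Chemosensory receptor genes (1455 odorant, vomeronasal and trace amine receptors) as a whole stood at 8.75 and 8.27 RPKM on day 0, 4.37 and 0.854 on day 4 and 0.0224 and 0.0241 on day 7. As a family these receptors belong to sensory neurons, and their level is used here as a background. Among marker lists, mature neutrophil genes (10 genes together) led at day 0 (2672 and 432 RPKM) and at day 4 (2820 and 2021 RPKM). Macrophage genes led at day 7 (704 and 744 RPKM for 11 genes). Of dendritic cell genes, Bst2 reached 613 and 714 RPKM and Itgax, the CD11c integrin, 24.7 and 25.9 RPKM at day 7, while Flt3 (1.22 and 1.97 RPKM) and Zbtb46 (0.0288 and 0.0283 RPKM), named here after their values were seen, were near 0.

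The share of all reads that fell in the 45 mitosis genes was lowest at day 7. It was 0.406% (95% exact Clopper-Pearson interval 0.384 to 0.429) and 0.602% (0.564 to 0.641) in day 0 libraries II and III. At day 4 it was 0.215% (0.208 to 0.223) in library I and 0.339% (0.333 to 0.344) in library II. At day 7 it was 0.0591% (0.0579 to 0.0603) in library III and 0.0656% (0.0641 to 0.0672) in library IV. As measured, the 3 days did not overlap. Both day 7 libraries stood below every other library by more than the counting intervals, which cover counting error only. The receptor background was not taken off this share, and whether day 0 and day 4 stay apart without it was not tested. Subtracting that background from each library moved the median log2 fold change of the 45 genes, day 4 against day 0, from -0.57 to -0.01. No test of this share was made, since 2 against 2 libraries can give an exact permutation p no smaller than 0.33. In bulk RNA, fewer dividing cells and less of these RNAs per dividing cell cannot be told apart.

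**Figure D1:**
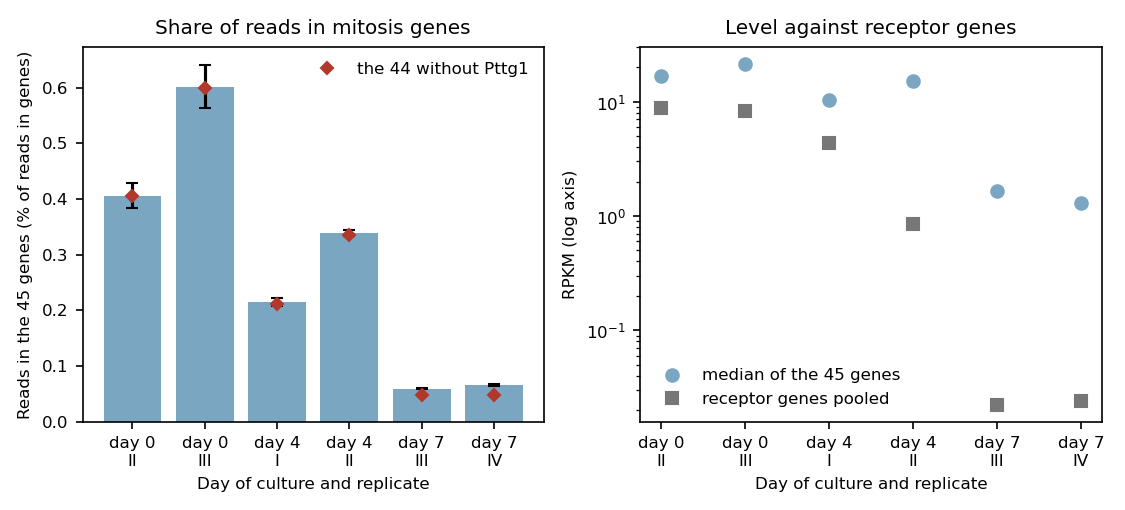
Left, reads in the 45 mitosis genes as a percentage of all reads in genes (bars, with exact 95% intervals), and the same for the 44 genes other than Pttg1 (diamonds), in the 2 libraries of each day. Right, the median RPKM of the 45 genes and the RPKM of 1455 receptor genes pooled, on a log axis: the median is 16.7 and 21.3 at day 0, then 10.3 and 15.2 at day 4 and 1.65 and 1.31 at day 7, and the receptor level is also lowest at day 7.

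As measured, the number of highly expressed members followed the same order. Members at 10 RPKM or more numbered 34 and 39 in the day 0 libraries, 24 and 33 at day 4 and 5 and 6 at day 7. The receptor background was exceeded by 36 and 41 of the 45 at day 0, by 41 and 45 at day 4 and by 45 and 44 at day 7. The median number of reads per member was 21 and 12 on day 0, 57 and 220 on day 4 and 124 and 72 on day 7. In every library before day 7 the leading member was Ube2c or Mki67, and in both day 7 libraries it was Pttg1.

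**Figure D2:**
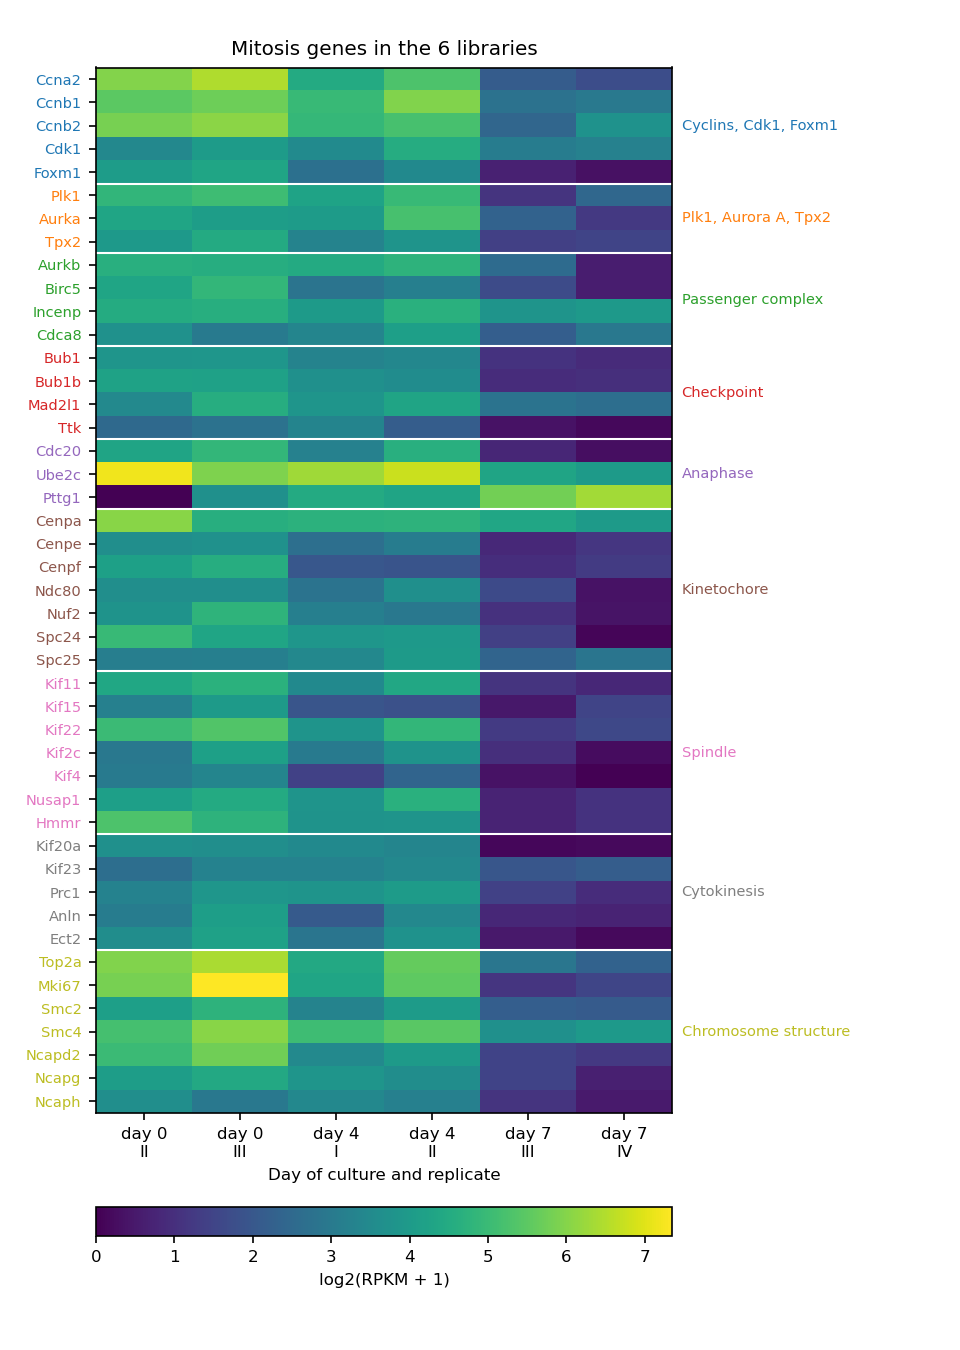
Level of each of the 45 mitosis genes as log2(RPKM + 1) in the 6 libraries, with days from left to right and genes grouped by role down the page. The day 7 columns are dark for most genes, with 31 and 26 of the 45 at 1 RPKM or more, and Pttg1 is the one gene that is brightest at day 7.

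Day 7 against day 4 asked what the second step of the culture did to these genes. With limma on log2(RPKM + 1), fitted over all 19279 genes tested with Benjamini-Hochberg adjustment, 30 of the 45 members fell and 0 rose at adjusted p under 0.05. Over all genes tested 6.75% were called lower and 5.85% higher. Without adjustment 39 members were lower and 0 higher at p under 0.05, where 3521 of the 19279 genes tested were lower and 2110 higher. With limma voom on the reads behind the RPKM values 42 members were called lower and 1 higher, where 53.9% of all genes were lower. The median log2 fold change was -2.39 over the members and -0.81 over all genes. Among the 30 called, mean RPKM was lower by 3.89-fold (Ccnb2) to 82.8-fold (Kif20a), with a median of 10.9-fold. Both day 7 libraries were below both day 4 libraries for 44 of the 45 genes, and above them for Pttg1. Of the 19279 genes tested, 11103 lay below in the same way and 3775 above.

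These calls rest on both day 4 libraries. Leaving out either left 0 genes of the whole table called in this comparison. Leaving out day 7 library III left 16 members called lower, where 2.32% of all genes were lower, and leaving out library IV left 10, where 1.73% were. Quantile normalization left 4, beside 2.51% of all genes, and thinning every library to the smallest left 5, beside 2.97%. The median over members stayed between -2.61 and -1.56 in these settings. With the receptor background subtracted from each library, a setting chosen after seeing the data, 5 members were called lower (Ccna2, Bub1b, Ttk, Hmmr and Kif20a), against 2.70% of all genes lower and 6.76% higher, and the median over members was -1.93 where that of all genes was 0. The part of the background, of depth and of the changing cell mixture in the other calls was not tested.

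Day 7 against day 0 compared the end of the culture with fresh marrow. In this comparison 37 members fell and 1, Pttg1, rose. Calls were common here, since 29.3% of all genes tested were lower and 11.3% higher. The median log2 fold change was -2.87 over the members and -1.14 over all genes. Among the 37, mean RPKM was lower by 3.76-fold (Smc4) to 98.8-fold (Kif20a). The 7 genes that did not pass were Cdk1, Incenp, Cdca8, Mad2l1, Cenpa, Spc25 and Kif23. For each of them both day 7 libraries were below both day 0 libraries, as for 9788 of the 19279 genes tested, with 3773 above. Over the settings tried, the highest log2 fold change was 1.13 for Cdk1, 1.47 for Cdca8, 0.19 for Mad2l1, 2.61 for Spc25 and 1.86 for Kif23. For Incenp (-0.06) and Cenpa (-0.44) it stayed negative. With the receptor background subtracted 12 members were called lower, against 1.74% of all genes lower and 17.2% higher: Ccna2, Ccnb1, Ccnb2, Bub1b, Spc24, Kif22, Hmmr, Kif20a, Top2a, Mki67, Ncapd2 and Ncapg. Pttg1 was also called higher in that setting. Leaving out day 7 library IV left 23 members lower, beside 2.61% of all genes, thinning to the smallest library 24, beside 15.7%, and quantile normalization 27, where 4.82% of all genes were lower and 6.28% higher. Each comparison with day 7 uses the same 2 day 7 libraries, so the 2 sets of calls are not independent.

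Day 4 against day 0 gave 1 call among the members. Cenpf fell, and 0 members rose, where 1.92% of all genes tested were called lower and 3.66% higher. Without adjustment 9 members were lower and 1 higher at p under 0.05, where 2735 of the 19279 genes tested were lower and 2161 higher. The median over the members was -0.57 and that over all genes -0.40. With quantile normalization these medians were -0.92 and -0.04, and 3 members (Ccna2, Cenpf and Ncapd2) were called lower, where 2.86% of all genes were. For 22 members the day 4 and day 0 libraries overlapped, for 21 both day 4 libraries were lower, and for 2 (Pttg1 and Spc25) both were higher. Of the 19279 genes tested, both day 4 libraries were lower for 6423 and higher for 3451. The call of Cenpf was lost when any library but day 0 library II was left out (adjusted p of 0.0648 to 0.148), and with the receptor background subtracted 0 members were called lower and 1, Ttk, was called higher.

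**Figure D3:**
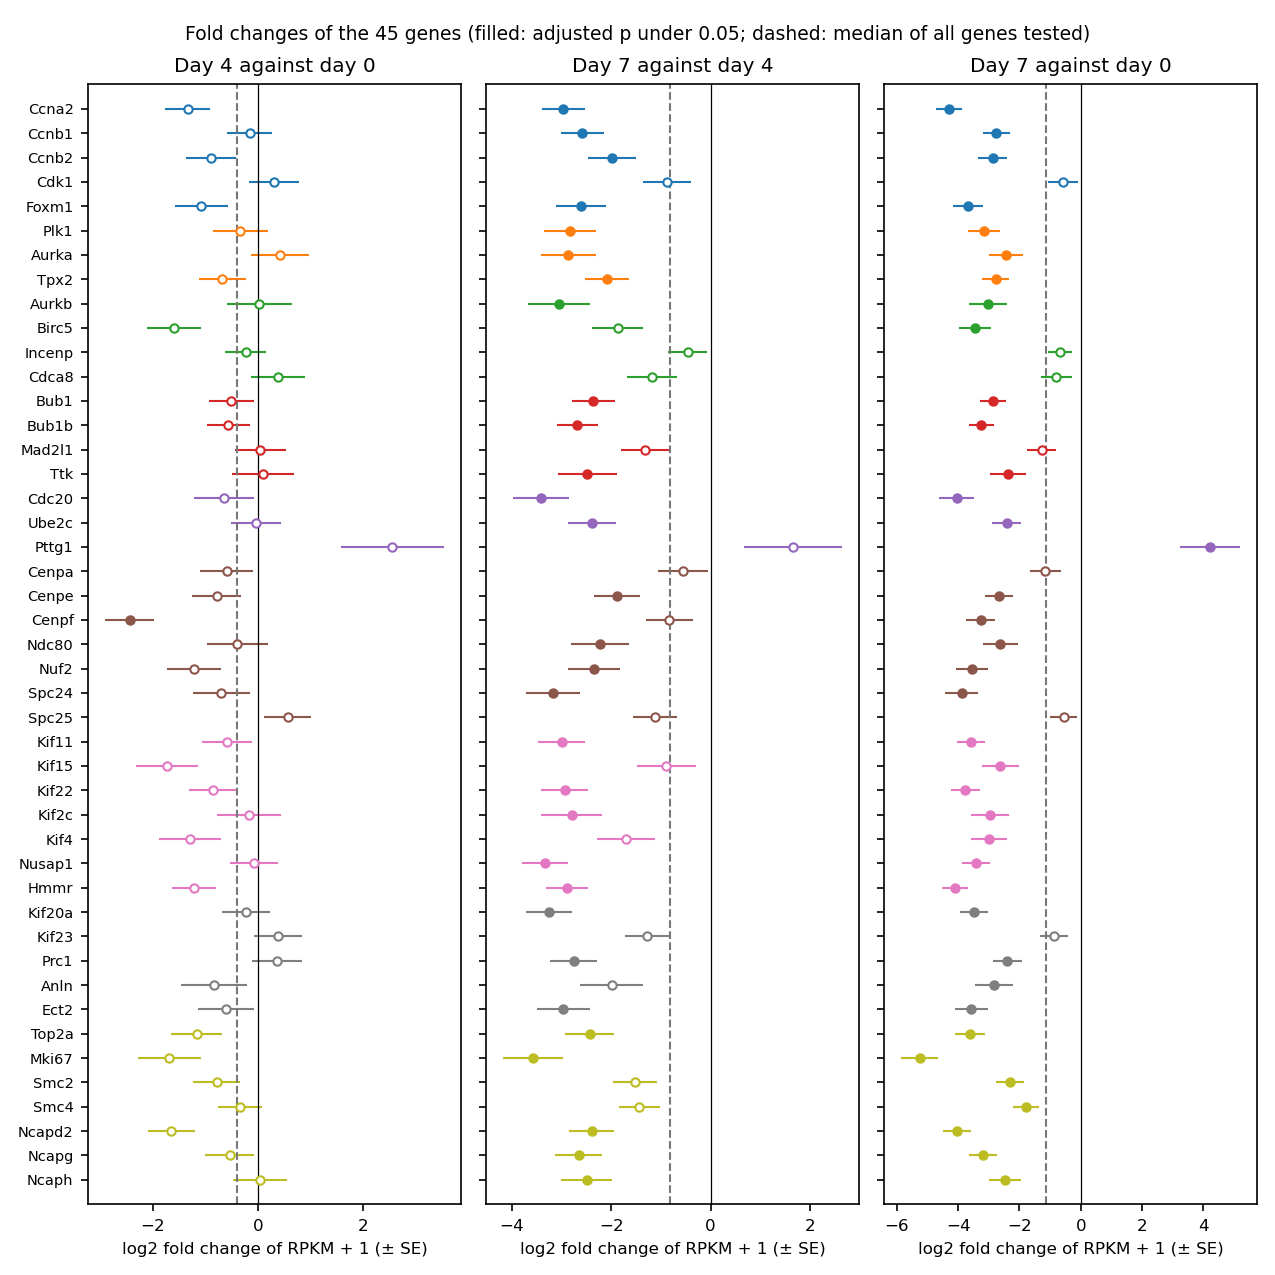
Log2 fold change of each member on the RPKM + 1 scale with its standard error, in a panel for each pair of days. Filled points have adjusted p under 0.05 (limma, Benjamini-Hochberg over all genes), and the dashed line is the median of all genes tested. On the lower side 1, 30 and 37 are filled from left to right, and Pttg1 stands apart on the right.

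Promoter windows of the members were searched for 2 motifs of cell cycle genes. In mammals many late cell cycle genes carry a CHR element, bound by MuvB complexes that repress them in resting cells and activate them with FOXM1 in dividing ones, often next to CCAAT boxes bound by NF-Y. RefSeq windows of 300 bases around the gene start (build GRCm38.p6) were at hand for 37 of the 45 members, without Aurkb, Ccna2, Foxm1, Incenp, Kif20a, Smc4, Spc24 and Tpx2. On either strand, TTTGAA or TTCGAA (CHR) was found in 29 of these 37 (78.4%), against 19.4% of 16524 table genes with a window. CCAAT was found in 27 (73.0%), against 42.4% of these table genes, and both were found in 25 (67.6%), against 8.01%. No test of these shares was made. The windows below are shown because they belong to the 6 members with the highest mean level at day 0 among those with a window that holds either motif, followed by Pttg1, added after its values were seen because it moved the other way. They lie at chr7:135716330-135716629 (minus strand) for Mki67, chr2:164769679-164769978 (plus strand) for Ube2c, chr11:99024140-99024439 (minus strand) for Top2a, chr9:70421505-70421804 (minus strand) for Ccnb2, chr13:100786437-100786736 (minus strand) for Ccnb1, chr5:30666636-30666935 (plus strand) for Cenpa and chr11:43425932-43426231 (minus strand) for Pttg1. Each is written 5′ to 3′ along the strand of its gene, with CHR and CCAAT matches of both strands in capitals.
Mki67: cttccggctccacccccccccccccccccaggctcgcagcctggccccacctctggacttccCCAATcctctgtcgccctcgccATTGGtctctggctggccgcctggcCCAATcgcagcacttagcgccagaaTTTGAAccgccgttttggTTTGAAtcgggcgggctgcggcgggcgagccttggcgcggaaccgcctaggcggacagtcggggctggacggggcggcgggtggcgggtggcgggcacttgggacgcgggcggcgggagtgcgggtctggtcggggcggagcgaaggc
Ube2c: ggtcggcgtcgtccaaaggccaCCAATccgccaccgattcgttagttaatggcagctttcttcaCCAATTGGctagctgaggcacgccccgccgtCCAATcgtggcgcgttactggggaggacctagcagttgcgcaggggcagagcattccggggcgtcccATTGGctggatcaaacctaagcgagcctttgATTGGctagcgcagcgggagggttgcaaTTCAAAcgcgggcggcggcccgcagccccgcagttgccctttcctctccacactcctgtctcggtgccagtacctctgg
Top2a: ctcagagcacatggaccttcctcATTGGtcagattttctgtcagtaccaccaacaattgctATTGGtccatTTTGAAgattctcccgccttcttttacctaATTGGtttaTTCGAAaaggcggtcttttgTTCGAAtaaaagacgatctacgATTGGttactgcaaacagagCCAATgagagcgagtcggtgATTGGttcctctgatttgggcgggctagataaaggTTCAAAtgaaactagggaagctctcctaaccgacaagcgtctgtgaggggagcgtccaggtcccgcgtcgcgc
Ccnb2: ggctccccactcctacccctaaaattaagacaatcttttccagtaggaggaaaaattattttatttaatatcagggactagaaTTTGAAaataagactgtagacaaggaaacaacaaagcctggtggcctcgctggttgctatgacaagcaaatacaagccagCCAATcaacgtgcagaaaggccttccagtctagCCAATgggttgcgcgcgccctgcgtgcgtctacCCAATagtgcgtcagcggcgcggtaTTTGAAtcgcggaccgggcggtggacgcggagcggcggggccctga
Ccnb1: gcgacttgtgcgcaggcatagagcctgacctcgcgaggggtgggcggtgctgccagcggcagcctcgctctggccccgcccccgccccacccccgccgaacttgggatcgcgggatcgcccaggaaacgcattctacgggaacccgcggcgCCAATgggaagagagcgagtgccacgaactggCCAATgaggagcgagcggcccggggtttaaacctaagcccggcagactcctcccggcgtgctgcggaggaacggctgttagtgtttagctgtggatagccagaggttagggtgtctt
Cenpa: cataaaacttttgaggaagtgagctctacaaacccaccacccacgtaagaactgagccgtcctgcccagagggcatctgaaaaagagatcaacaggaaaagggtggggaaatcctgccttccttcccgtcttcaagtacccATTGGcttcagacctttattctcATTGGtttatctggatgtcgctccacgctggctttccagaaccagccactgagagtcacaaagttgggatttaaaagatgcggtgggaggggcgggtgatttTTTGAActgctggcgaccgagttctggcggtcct
Pttg1: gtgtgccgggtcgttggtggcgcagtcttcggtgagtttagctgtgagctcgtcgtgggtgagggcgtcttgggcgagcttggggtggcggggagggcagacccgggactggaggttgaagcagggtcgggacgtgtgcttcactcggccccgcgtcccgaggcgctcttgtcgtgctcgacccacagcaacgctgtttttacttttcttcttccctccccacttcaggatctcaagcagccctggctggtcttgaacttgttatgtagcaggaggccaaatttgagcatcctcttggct

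Top2a held 4 CHR and 6 CCAAT matches, Mki67 and Ccnb2 2 CHR and 3 CCAAT matches each, and Cenpa 1 and 2. Ube2c held 1 CHR and 6 CCAAT matches, of which 1 pair overlaps as CCAATTGG. Ccnb1 held 2 CCAAT matches and no CHR match, and Pttg1 held neither. A match is a description of letters and not a binding site, and a window with no match shows only that these letters are not in it. Nusap1, Birc5, Ncaph, Cenpe, Mad2l1 and Nuf2 also had no CHR match. Of the members without one, Nusap1, Ncaph, Cenpe, Ccnb1 and Nuf2 were called lower at day 7 against day 4. Birc5, Mad2l1 and Pttg1 were not called. Of the 29 members with a CHR match, Cdk1, Cdca8, Cenpa, Cenpf, Spc25, Kif15, Kif4, Kif23, Anln and Smc2 were not called either. The others of the 29 were called lower. Whether calls go with matches was not tested.

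Of the mitotic cyclins and their regulators, 4 of 5 fell at day 7 against both earlier days. Ccna2, the cyclin A of S phase and mitotic entry, had 62.8 and 87.9 RPKM at day 0, then 21.6 and 38.3 at day 4 and 3.39 and 2.34 at day 7. Each day was below the one before it with no overlap, and the log2 fold change of day 7 against day 4 was -2.96 ± 0.43 (SE, limma, adjusted p = 0.00408). Ccnb1, the main cyclin B, had 44.1 and 52.0 RPKM on day 0, 29.7 and 61.1 on day 4 and 5.80 and 6.82 on day 7. Day 4 library II was above both day 0 libraries and library I below them, while day 7 was 7.19-fold lower than day 4 in the mean (log2 fold change -2.58 ± 0.43, adjusted p = 0.00756). Ccnb2 had 56.3 and 65.8 RPKM at day 0, then 29.0 and 35.9 at day 4 and 4.34 and 12.3 at day 7, the day 7 replicates differing more than those of Ccnb1.

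Foxm1, the transcription factor that activates late cell cycle genes, was among the lowest members at day 7. It had 15.6 and 18.9 RPKM on day 0, 5.54 and 10.3 on day 4 and 0.596 and 0.251 on day 7 (42 and 12 reads), and it fell by 2.60 ± 0.50 on the log2 scale at day 7 against day 4 (adjusted p = 0.0127). Cdk1, the kinase that these cyclins activate, was not called in any comparison. It had 9.75 and 15.5 RPKM at day 0, then 10.5 and 22.4 at day 4 and 7.51 and 8.30 at day 7. Both day 7 libraries were the lowest, but the log2 fold change of -0.88 ± 0.48 against day 4 (adjusted p = 0.245) and of -0.58 ± 0.48 against day 0 (adjusted p = 0.33) did not pass the test. Its values rested on 9 and 7 reads on day 0, 41 and 247 on day 4 and 347 and 260 on day 7.

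**Figure D4:**
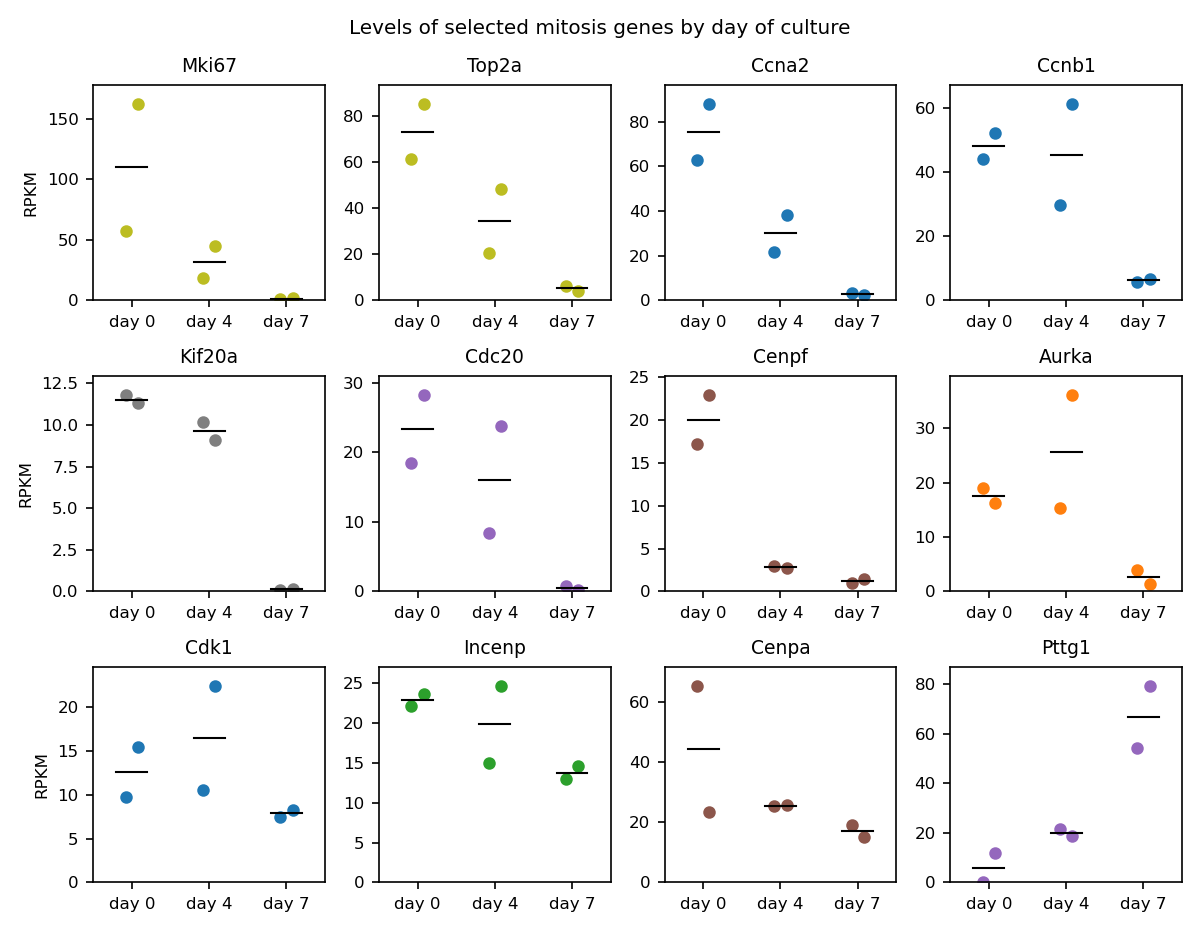
RPKM of 12 mitosis genes in each library (points) with the mean of the 2 libraries of a day (lines), each panel on its own axis from 0, days 0, 4 and 7 from left to right. Mki67, Top2a, Ccna2, Ccnb1, Kif20a, Cdc20 and Aurka are lowest at day 7, Cenpf is already low at day 4, Cdk1, Incenp and Cenpa keep 7.51 RPKM or more in every day 7 library, and Pttg1 reaches 54.2 and 79.1 RPKM at day 7.

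The kinases of spindle assembly, Plk1 and Aurora A, and Tpx2, which activates Aurora A on microtubules, all fell. Plk1 had 27.6 and 32.2 RPKM at day 0, then 18.3 and 29.8 at day 4 and 1.15 and 4.45 at day 7. Aurka had 19.0 and 16.2 RPKM on day 0, 15.3 and 36.1 on day 4 and 3.98 and 1.31 on day 7. For both, day 4 overlapped day 0 and day 7 was below all 4 earlier libraries, by 8.59-fold for Plk1 and 9.71-fold for Aurka against the day 4 mean (adjusted p = 0.0115 and 0.0136). Tpx2 had 1.63 and 1.86 RPKM at day 7, against 8.70 and 13.1 at day 4, with replicates closer together than those of the 2 kinases.

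The chromosomal passenger complex, in which Incenp holds Aurora B to survivin (Birc5) and borealin (Cdca8), had 1 of 4 members lower at day 7 against day 4 and 2 of 4 against day 0. Aurkb had 23.7 and 22.7 RPKM at day 0, then 21.3 and 26.1 at day 4 and 4.94 and 0.513 at day 7. Its 2 day 7 libraries were far apart, with 156 and 11 reads, and both lay below day 4, where the log2 fold change of -3.04 ± 0.62 against day 4 passed the test (adjusted p = 0.0167). Birc5 had 19.1 and 28.1 RPKM on day 0, 6.14 and 7.94 on day 4 and 2.22 and 0.496 on day 7, and was called against day 0 (adjusted p = 0.0037) but not against day 4 (adjusted p = 0.0524). Incenp had 22.1 and 23.6 RPKM at day 0, then 15.0 and 24.6 at day 4 and 12.9 and 14.6 at day 7, the smallest difference of all members between day 7 and day 4 (log2 fold change -0.46 ± 0.39, adjusted p = 0.406). Cdca8 had 3.54 and 6.65 RPKM at day 7, against 9.15 and 16.6 at day 4, and did not pass either comparison with day 7. Incenp was the highest of the 4 subunits in both day 7 libraries, on 671 and 516 reads.

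Among the spindle checkpoint genes, Bub1, Bub1b and Ttk fell and Mad2l1 did not pass. Bub1b, which makes the BubR1 inhibitor of the anaphase-promoting complex, had 17.7 and 17.3 RPKM on day 0, 12.0 and 11.0 on day 4 and 0.894 and 0.995 on day 7. Its replicates were close at every day, and it was called in both comparisons with day 7 also after the background was subtracted. Ttk, the Mps1 kinase that starts checkpoint signalling, had 4.69 and 5.76 RPKM at day 0, then 8.87 and 3.46 at day 4 and 0.281 and 0.111 at day 7. Its day 0 values stood below the receptor background of 8.75 and 8.27 RPKM on 5 and 3 reads, and with that background subtracted its log2 fold change of day 7 against day 0 was 0.23 and not called, against -2.38 as measured. Mad2l1, the Mad2 protein that captures Cdc20, had 9.91 and 22.8 RPKM on day 0, 13.2 and 18.4 on day 4 and 5.99 and 5.26 on day 7 (log2 fold change -1.32 ± 0.48 against day 4, adjusted p = 0.113).

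The 3 anaphase genes went in opposite directions. Cdc20, the activator of the anaphase-promoting complex, had 18.4 and 28.2 RPKM at day 0, then 8.42 and 23.7 at day 4 and 0.712 and 0.203 at day 7, and fell by 3.41 ± 0.57 on the log2 scale against day 4 (adjusted p = 0.00742). Ube2c, the ubiquitin-conjugating enzyme of the same complex, had 146 and 59.9 RPKM on day 0, 77.7 and 107 on day 4 and 18.7 and 14.9 on day 7, and fell 5.50-fold in the mean against day 4 (adjusted p = 0.0168). It was still the member with the third highest level at day 7. Pttg1, securin, the inhibitor of separase that the complex destroys at anaphase, had 0 and 11.8 RPKM at day 0, then 21.4 and 18.7 at day 4 and 54.2 and 79.1 at day 7. Its days did not overlap, and it was the only member whose day 7 libraries lay above those of day 4 and day 0.

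Against day 0 Pttg1 rose by 4.22 ± 0.98 on the log2 scale (limma, adjusted p = 0.0165), and against day 4 its difference of 1.66 ± 0.98 did not pass (adjusted p = 0.278). The day 0 values are 0 and 4 reads, so this log2 value depends on the pseudocount and on the library, and it ran from 2.38 (without day 0 library II) to 6.05 (without day 0 library III) over the settings tried. No ratio of RPKM is given against day 0. At day 7 it had 1887 and 1868 reads, the most of any member. Its share of all reads in the 45 genes was 0% and 0.421% on day 0, 2.14% and 1.19% on day 4 and 19.8% and 26.0% on day 7. Without Pttg1, the other 44 genes held 0.0474% and 0.0486% of reads at day 7, against 0.211% and 0.335% at day 4. The call against day 0 was lost in 6 of 17 other settings: when either day 4 library or day 7 library IV was left out, with the day 7 and day 0 libraries fitted alone, with quantile normalization and with thinning to the smallest library.

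Of the 7 kinetochore genes, 4 were called lower at day 7 against day 4 and 5 against day 0. Ndc80, Nuf2 and Spc24, subunits of the complex that grips microtubules, and the motor Cenpe fell at day 7 against both earlier days. Spc24 had 29.9 and 18.8 RPKM at day 0, then 13.6 and 14.8 at day 4 and 1.65 and 0.0677 at day 7 (36 and 1 reads). The fourth subunit, Spc25, had 7.86 and 8.04 RPKM on day 0, 9.76 and 15.2 on day 4 and 4.15 and 6.26 on day 7. Spc25 was above its partner Spc24 in both day 7 libraries and below it in both day 0 libraries, on 211 and 216 reads at day 7 and 8 and 4 at day 0, and did not pass any comparison (adjusted p = 0.14 for day 7 against day 4).

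Cenpf, a large kinetochore and nuclear matrix protein of G2 and mitosis, was the one member called at day 4 against day 0. It had 17.2 and 22.9 RPKM at day 0, then 2.97 and 2.74 at day 4 and 0.960 and 1.41 at day 7. The day 4 libraries were 7.02-fold below day 0 in the mean (log2 fold change -2.44 ± 0.47, limma adjusted p = 0.0282), and day 7 differed from day 4 by -0.83 ± 0.47 (adjusted p = 0.265). The day 0 values rest on 63 and 41 reads over a gene length of 11357 bases. Cenpa, the histone H3 variant that marks centromeres, had 65.1 and 23.5 RPKM on day 0, 25.3 and 25.7 on day 4 and 19.2 and 15.2 on day 7. It was second to Pttg1 among members in both day 7 libraries, and its differences from day 4 (-0.55 ± 0.50, adjusted p = 0.429) and from day 0 (-1.15 ± 0.50, adjusted p = 0.0933) did not pass.

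All 7 spindle genes fell at day 7 against day 0, and 5 of 7 against day 4. Kif11, the Eg5 motor that pushes spindle poles apart, had 19.9 and 25.0 RPKM at day 0, then 10.3 and 20.1 at day 4 and 1.13 and 0.777 at day 7. Nusap1, which bundles spindle microtubules, had 16.7 and 21.4 RPKM on day 0, 13.1 and 24.2 on day 4 and 0.669 and 1.11 on day 7, a 21.0-fold lower mean at day 7 than at day 4 (adjusted p = 0.00341). Hmmr, a hyaluronan receptor that also binds spindle microtubules, had 38.1 and 26.0 RPKM at day 0, then 12.7 and 13.1 at day 4 and 0.670 and 1.12 at day 7. For Kif11 and Nusap1 day 4 overlapped day 0, while Hmmr was lower in both day 4 libraries without passing the test (adjusted p = 0.125). Kif22, a motor on chromosome arms, and Kif2c, a microtubule depolymerase, were also called in both comparisons with day 7. Kif15 and Kif4 were called against day 0 but not against day 4 (adjusted p = 0.316 and 0.101). With the receptor background subtracted neither was called against day 0. Over the settings tried, the log2 fold change against day 0 ran from -3.75 to -0.53 for Kif15 and from -7.29 to -0.29 for Kif4. Kif15 had 2.80 and 2.52 RPKM at day 4, and Kif4 1.67 and 4.13, so both were low before day 7, and Kif4 had 23 and 0 reads at day 7.

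Cytokinesis held the member with the widest fold difference. Kif20a, the Mklp2 motor that carries the passenger complex to the central spindle, had 11.8 and 11.3 RPKM on day 0, 10.2 and 9.11 on day 4 and 0.0945 and 0.139 on day 7. Both day 4 libraries were just below both day 0 libraries, and day 7 rested on 6 and 6 reads, a mean 82.8-fold below day 4 (log2 fold change -3.25 ± 0.46, adjusted p = 0.00382). It was called in both comparisons with day 7 under the background subtraction too. Kif23, the Mklp1 motor of centralspindlin, had 5.25 and 8.60 RPKM at day 0, then 8.57 and 9.69 at day 4 and 2.91 and 3.52 at day 7, and passed in neither comparison (adjusted p = 0.111 against day 4). Prc1, which crosslinks the central spindle, and Ect2, the exchange factor that activates RhoA for furrowing, fell against both earlier days. With the background subtracted neither was called. Over the settings tried, the log2 fold change against day 0 ran from -3.04 to -0.18 for Prc1 and from -5.69 to -1.85 for Ect2. Anln, anillin of the contractile ring, had 0.754 and 0.657 RPKM at day 7, against 3.24 and 9.82 at day 4, with day 4 replicates far apart and adjusted p = 0.0766.

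Every gene of chromosome structure fell at day 7 against day 0, and 5 of 7 fell against day 4. Mki67, the Ki-67 coat protein of mitotic chromosomes and the standard marker of cycling cells, had 56.9 and 162 RPKM on day 0, 18.8 and 44.9 on day 4 and 1.21 and 1.90 on day 7. The replicates of day 0 and of day 4 differed by more than 2-fold, yet the days did not overlap, and Mki67 had the largest log2 fold change of the members against both day 4 (-3.57 ± 0.60, adjusted p = 0.00764) and day 0 (-5.26 ± 0.60, adjusted p = 0.00123). Top2a, the topoisomerase that untangles sister chromatids, had 61.1 and 85.0 RPKM at day 0, then 20.6 and 48.2 at day 4 and 6.41 and 3.93 at day 7, and so kept a higher level than Mki67 at day 7.

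Of the 5 condensin genes among the members, whose products compact chromosomes, all fell at day 7 against day 0 and 3 against day 4. Smc4, a core subunit of both condensins, had 35.3 and 65.0 RPKM on day 0, 32.4 and 43.6 on day 4 and 11.9 and 14.8 on day 7. Its partner Smc2 had 3.55 and 3.32 RPKM at day 7, against 8.81 and 15.5 at day 4. Neither core subunit was called against day 4 (adjusted p = 0.0614 for Smc4 and 0.0629 for Smc2), and differences between subunits were not tested. The condensin I subunits Ncapd2, Ncapg and Ncaph were called in both comparisons. With the receptor background subtracted, Ncapd2 and Ncapg stayed called against day 0 and Ncaph did not. Over the settings tried, the log2 fold change of Ncaph against day 0 ran from -3.63 to -0.13. Ncapd2 had 30.9 and 53.3 RPKM at day 0, then 9.90 and 15.1 at day 4 and 1.76 and 1.31 at day 7, the largest fold of these 5 genes against day 0 (27.4-fold). Smc4 was the highest of these 5 condensin genes in all 6 libraries.

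At day 7, 8 members still had at least 5 RPKM in both libraries: Ccnb1, Cdk1, Incenp, Mad2l1, Ube2c, Pttg1, Cenpa and Smc4. At the other end 9 were under 1 RPKM in both: Foxm1, Bub1b, Ttk, Cdc20, Kif2c, Kif4, Kif20a, Anln and Ect2. Replicates were not equally close over the days. At day 4, 36 of 45 members were higher in library II than in library I (median log2 difference 0.54), while over all genes tested the median difference was -0.62, the opposite sense. Members that differed by over 2-fold between replicates were 15.6% at day 0, against 38.3% of all genes tested. At day 4 they were 20%, against 37%. At day 7 the order was reversed, with 8 members (17.8%) against 6.48% of all genes tested. These 8 included Aurkb, Spc24 and Ndc80, with 156 and 11, 36 and 1, and 77 and 7 reads.

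Other genes of mitosis, grouped by the same roles, gave mixed counts at day 7 against day 4. Of 18 other entry regulators 4 were lower and 0 higher, of 29 other kinetochore genes 9 and 1, of 22 checkpoint and anaphase-promoting complex genes 5 and 1, of 29 spindle and cytokinesis genes 10 and 1, and of 7 chromosome structure genes 2 and 0. Their medians of -1.46, -1.52, -0.69, -1.53 and -1.85 were all nearer to 0 than the -2.39 of the 45 members. Among those that fell, Mybl2, the B-Myb factor that works with MuvB and Foxm1, had 1.30 and 0.0987 RPKM at day 7, against 9.10 and 9.96 at day 4. Hjurp, the chaperone that loads Cenpa, had 3.02 and 3.18 RPKM at day 7, against 53.8 and 35.5 at day 4 (adjusted p = 0.00128), while Cenpa itself was not called.

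The 3 that rose were Cenpb, Anapc11 and Kif3a, the last named after its values were seen. Cenpb, which binds centromere satellite DNA, had 81.9 and 96.6 RPKM at day 7, against 0.269 and 2.57 at day 4 (adjusted p = 0.0013). Anapc11, the RING subunit of the anaphase-promoting complex, had 57.8 and 93.7 RPKM at day 7, against 7.39 and 6.55 at day 4 (adjusted p = 0.00342). At the same days its coactivator Cdc20 and its partner enzyme Ube2c fell, and Ube2s, the second enzyme of the complex, had 140 and 131 RPKM at day 7, against 112 and 207 at day 4 (adjusted p = 0.837).

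**Figure D5:**
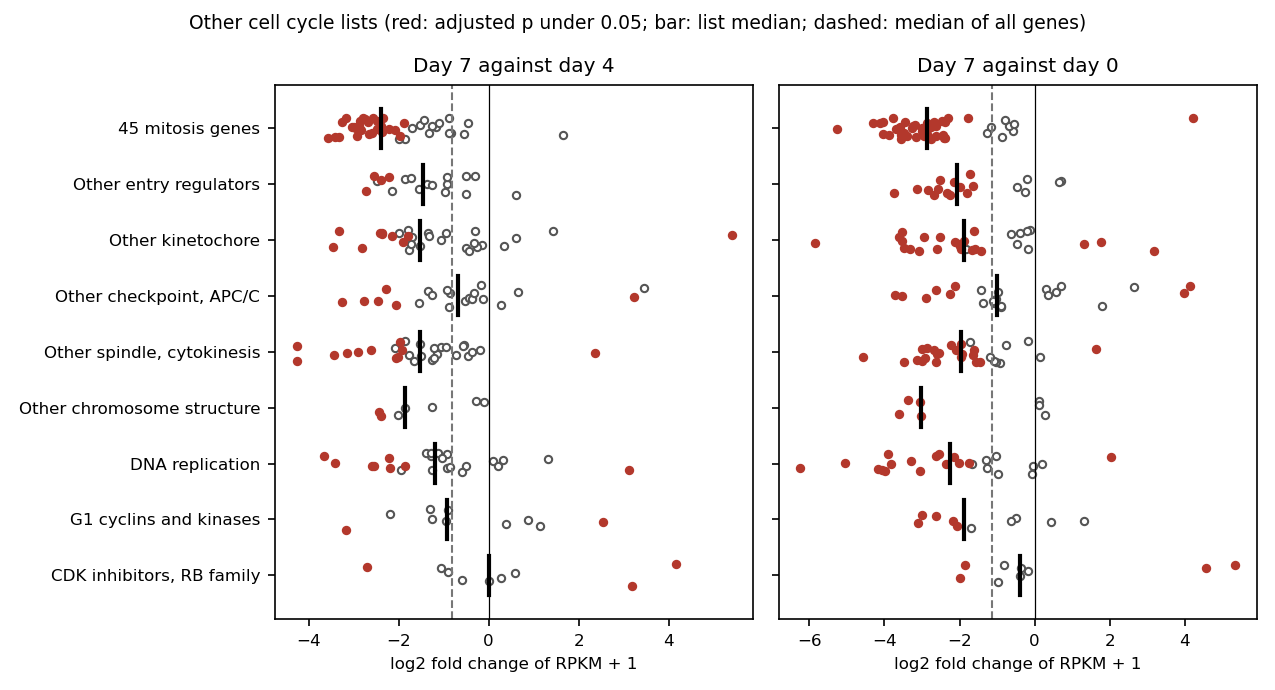
Log2 fold change of RPKM + 1 for each gene of the 45 and of 8 other cell cycle lists, at day 7 against day 4 (left) and against day 0 (right). Red points have adjusted p under 0.05, bars are list medians and the dashed line is the median of all genes. The median of the 45 is -2.39 and -2.87. That of the CDK inhibitors and RB family is 0.01 and -0.39, with genes from -2.71 to 4.17 and from -2 to 5.34.

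Genes of DNA replication included calls at the first step. At day 4 against day 0, 3 of 24 replication genes fell (Tyms, Mcm2 and Uhrf1) and the list median was -1.27, beside -0.57 for the 45 members. Mcm2, part of the replicative helicase, had 7.60 and 12.2 RPKM at day 4, against 69.8 and 107 at day 0 (log2 fold change -3.04 ± 0.42, adjusted p = 0.012). At day 7 against day 4, 7 of 24 fell and 1 rose. The one that rose was Pcna, the sliding clamp of replication and repair, with 603 and 462 RPKM at day 7, against 44.2 and 82.4 at day 4 (adjusted p = 0.00462). The difference between the lists was not tested.

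Of 9 tested inhibitors of cyclin-dependent kinases and RB family genes, 2 rose and 1 fell at day 7 against day 4. Cdkn1a, the p21 inhibitor, had 1.17 and 7.16 RPKM on day 0, 15.7 and 19.9 on day 4 and 167 and 171 on day 7, and Cdkn1c, the p57 inhibitor, had 39.5 and 25.5 RPKM at day 7, against 0.455 and 1.29 at day 4. The adjusted p of day 7 against day 4 was 0.0116 for Cdkn1a and 0.00367 for Cdkn1c. Cdkn2d, the p19 inhibitor, had 12.9 and 10.4 RPKM at day 7, against 73.7 and 89.7 at day 4, and fell (adjusted p = 0.0137). Of 10 genes of G1 cyclins and kinases, 1 rose at day 7 against day 4 (Ccnd1, 8.68 and 10.8 RPKM, against 1.23 and 0.490) and 1 fell (Ccnd3, 6.11 and 7.33 RPKM, against 74.5 and 63.6).

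Markers of marrow precursors, where most dividing cells of the tissue are found, and of basophils and mast cells followed several courses over the days. The 14 erythroid precursor genes as a whole stood at 155 and 150 RPKM at day 0, then 17.8 and 20.9 at day 4 and 2.85 and 2.39 at day 7, with 13 of 14 lower at day 4 against day 0 and 8 of 14 lower at day 7 against day 4. The 8 granulocyte precursor genes stood at 598 and 97.3 RPKM on day 0, 169 and 237 on day 4 and 0.0344 and 0 on day 7, with 7 of 8 genes in library III and 8 of 8 in library IV, Mpo and Cebpe among them, listed at 0. For granulocyte precursor genes 0 of 8 were called at day 4 against day 0 and 7 of 8 were lower at day 7 against day 4. B cell precursor genes as a whole stood at 5.06 and 5.52 RPKM at day 0, then 4.80 and 2.39 at day 4 and 9.76 and 6.97 at day 7. Their median was 3.84 and 5.31 RPKM at day 0 and 0.0842 and 0 at day 7, when 5 and 10 of the 14 genes were at 0. Of 13 tested, 2 were higher (Blnk and Il7r) and 2 lower at day 7 against day 4, and 2 higher and 8 lower against day 0. The 8 basophil and mast cell genes stood at 19.6 and 17.3 RPKM on day 0, 49.5 and 85.0 on day 4 and 0.101 and 0.0701 on day 7, with 2 of 8 higher at day 4 against day 0 and 7 of 8 lower at day 7 against day 4. The part of these cell types in the mitosis genes was not tested.

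Reads of 9 members may mix with those of a neighbour, because their exons overlap a protein-coding gene on the other strand and the handling of strand is not given in the sources used here. They are Ccna2, Cdc20, Cdca8, Kif20a, Kif4, Ncapg, Nusap1, Prc1 and Ube2c (GENCODE vM21). Kif20a shares 1271 exon bases with Cdc23, which had 0.755 and 0.250 RPKM at day 7, against 7.84 and 4.97 at day 4, so the neighbour was low on the same day. Kif4 shares 832 bases with Pdzd11, which had 20.6 and 14.8 RPKM at day 7, when Kif4 itself had 23 and 0 reads.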

How the data were processed

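Total RNA was turned into cDNA with the SMARTer v3 kit for low input and into libraries with NexteraXT, per the labels' protocols. The authors deposited RPKM per gene with exon lengths, per the file headers. Per the submitters' processing notes, TopHat2 2.0.13, SAMtools 1.1 and build mm9 are listed, with no role given. Which counter and annotation made the values, and whether strand was used, is not given in the sources used here.

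RPKM times length gave whole reads in every library (largest deviation 6.88e-05 reads), so depth, from 157797 to 16149088 reads, and exact 95% intervals could be computed. The floor of 3 reads for a gene of 1 kb ran from 0.186 to 19 RPKM. Values were tested as log2(RPKM + 1), which understates changes of low genes. A model of 3 group means over 6 libraries was fitted with limma 3.58.1 in R 4.3.3 with a mean-variance trend, leaving 3 residual and a median of 5.22 prior degrees of freedom, over 19279 genes, 92 entries of the table having no symbol. P-values were two-sided, adjusted by Benjamini-Hochberg and called under 0.05, and the code was checked on simulated data. Settings tried were other pseudocounts, filters, normalizations, models and depths, libraries left out and, added after seeing the data, subtraction of the receptor level.

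The members and lists were chosen with earlier results of these data known. All members could be named. Of each other list the 2 genes highest in mean RPKM, the 2 with the smallest p in each comparison and any gene at 0 in a whole group could be named, and other names are marked. Promoter windows came from RefSeq (GRCm38.p6) and exon overlaps from GENCODE vM21, another build than mm9. The windows were joined only by Entrez gene number (the printed Pttg1 window by symbol), and the exon overlaps only by symbol. Data handling used pandas 2.3.3 and data.table at version 1.17.8, and the figures matplotlib 3.10.9, all under Python 3.11.15 or R.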

Additional observations from a re-analysis of the deposited data

How the results depend on the processing

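No paired analysis was possible because any 2 days share at most 1 replicate number. Of the 30 members lower at day 7 against day 4, the number was 4 with quantile normalization, 5 with libraries thinned to the smallest, 5 with the receptor level subtracted and 0 to 35 with 1 library left out; the other settings gave 24 to 42. Pttg1 made 1 call higher there with voom and with the 2 groups alone, and 0 to 1 with a library left out. The 37 lower at day 7 against day 0 were 24 when thinned, 12 with the receptor level subtracted and 23 to 38 with 1 library left out, and the 1 higher was 0 with quantile normalization, when thinned and with 2 groups alone, and 0 to 1 with a library left out. At day 4 against day 0 the 1 lower was 0 with a pseudocount of 0.1 RPKM, array weights, thinning, 2 groups alone or the receptor level subtracted, 2 with a pseudocount of 5 or a mean of at least 5 RPKM, 3 with quantile normalization and 0 to 3 with a library left out. The 0 higher was 1 with the receptor level subtracted and 0 to 1 with a library left out. Ttk at day 7 against day 0 was the 1 result of a called gene that changed sign (0.23 with the receptor level subtracted). Where a library is left out, the lone library of its day is assumed to vary like the others. The cause of these changes was not tested. Quantile normalization moved the median of all genes from -0.40, -0.81 and -1.14 in the 3 comparisons to -0.04, 0.04 and -0.01, and that of the members to -0.92, -1.56 and -2.57. Counting reads without marker and receptor genes in the total made the share of reads 0.442% in day 0 library II, 0.231% and 0.355% at day 4 and 0.0604% in day 7 library III. Depth limits the day 0 values most, where 3 reads of a gene of 1 kb come to 9.29 and 19 RPKM.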
